A study of Mus musculus with 6 samples.

Results

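The AP-1 and immediate early genes described here are 10 genes, chosen by name among the 57010 genes of the count table: Fos, Fosb, Fosl2, Jun, Junb, Jund, Atf3, Egr1, Ier2 and Klf6. Each name matched 1 row of the table, and all 10 were among the 18114 genes that passed the filter on low counts. RNA was sequenced from monocytes that were enriched by negative selection from the marrow of the mandible or of the femur of male and female C57BL/6 mice (C57BL/6J in the study's methods) 1 year old. The 6 libraries were 3 femur-derived (S13, S15 and S18) and 3 mandible-derived (S16, S19 and S23), with no treatment and no altered allele named for either group. The labels do not tie a library to an animal, a sex or a batch, so the p-values measure the spread between these libraries, and whether a femur and a mandible library came from the same mouse is not known. The study asked how monocytes, the precursors of osteoclasts, differ between the skeletal sites, and several of these 10 genes are transcription factors of the osteoclast lineage.

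Immediate early genes are transcribed within minutes of a stimulus, without new protein synthesis, and their mRNAs are short-lived. AP-1 is a pair of basic leucine zipper (bZIP) proteins that binds DNA, most often a protein of the Jun family (Jun, Junb, Jund) with one of the Fos family (Fos, Fosb, Fosl2), while Jun proteins can also pair with each other and with ATF proteins such as Atf3. In the monocyte lineage Fos is required for osteoclast formation, since it lies between the RANKL signal and the induction of Nfatc1. Egr1 and Klf6 are zinc finger transcription factors, and Ier2 encodes a small nuclear protein induced by growth factors. Many of them are also known to respond to the dissociation of a tissue.

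The libraries held 15718782 to 25371474 counts on genes, and the upper limit for an undetected gene, 3 counts, came to 0.118 to 0.191 counts per 1000000 (CPM) before scaling, counting error only. The 10 genes had 267 to 26446 counts in each library and took 0.171% to 0.473% of all counts, so that none of them was near the limit. Expression is given as CPM after TMM scaling (the trimmed mean of M values). Library S23 stood apart in sex, with 25189 counts of Xist, which is made from the inactive X, and 0 counts of 4 genes of the Y chromosome (Uty, Ddx3y, Kdm5d and Eif2s3y), against at most 12 and at least 2772 counts in the other 5 libraries. S23 also had the fewest counts, and its count column carries another prefix (Kmansky) than those of the other 5 (Mansky). What the prefix marks is not given. Femur library S13 had the highest summed level of neutrophil markers (33539 CPM, against 3916 to 24210 CPM in the other 5) and of erythroid markers (1597 CPM, against 102 to 291 CPM). Of the 15 monocyte markers, all were tested and 1 was called between the sites (Nr4a1, described with the immediate early genes), where 5.18% of all tested genes were called. The sum of the monocyte markers was 8909 to 15880 CPM for femur libraries and 7573 to 13466 CPM for mandible libraries. Ribosomal RNA of the Rn18s gene took 4.81% to 12.2% of the counts.

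Positions are given from GENCODE M21 (GRCm38), matched by Ensembl identifier, because the intervals printed in the count table did not fall inside the M21 genes. Atf3 (ENSMUSG00000026628) lies on chromosome 1 from 191170296 to 191218039 and Klf6 (ENSMUSG00000000078) on chromosome 13 from 5861482 to 5870394. The Fos family genes are Fos (ENSMUSG00000021250, chromosome 12, 85473890 to 85477273), Fosb (ENSMUSG00000003545, chromosome 7, 19302696 to 19310051) and Fosl2 (ENSMUSG00000029135, chromosome 5, 32135801 to 32157842). Jun (ENSMUSG00000052684) lies on chromosome 4 from 95049034 to 95052222. Junb (ENSMUSG00000052837, 84974484 to 84978718), Jund (ENSMUSG00000071076, 70698949 to 70700616) and Ier2 (ENSMUSG00000053560, 84661331 to 84662852) share chromosome 8. Jun, Jund and Ier2 each have a single exon. Junb shares 173 exon bases with Prdx2 on the other strand, and Prdx2 had 1527 to 5431 counts in the femur and 1339 to 1539 counts in the mandible. Jun shares 232 exon bases with the antisense gene Junos (74 to 263 counts), and Jund shares 877 with Gm11175 (29 to 63 counts). Whether the counting used the strand is not given in the sources used here, so reads in these stretches cannot be told apart.

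Promoter sequence is shown for Fos and Jun, the most abundant member of each family, and for Junb and Atf3, whose mandible libraries all lay above the femur libraries. Each line is the 120 bases before the RefSeq start of the gene (GRCm38.p6, 5′ to 3′ on the strand of the gene): Fos at chr12:85473770-85473889 on the plus strand, Jun at chr4:95052223-95052342, Junb at chr8:84978749-84978868 and Atf3 at chr1:191183334-191183453, the last 3 on the minus strand. The capitals mark TGACG, the first letters of the cyclic AMP response element, on either strand (CGTCA where it is read on the other strand), a TATA box (TATAAA) or a CCAAT box.
Fos: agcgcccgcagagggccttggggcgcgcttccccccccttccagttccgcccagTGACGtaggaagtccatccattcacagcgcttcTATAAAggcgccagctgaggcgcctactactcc
Jun: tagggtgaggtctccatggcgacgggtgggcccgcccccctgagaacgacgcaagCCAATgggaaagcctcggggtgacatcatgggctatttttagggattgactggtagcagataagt
Junb: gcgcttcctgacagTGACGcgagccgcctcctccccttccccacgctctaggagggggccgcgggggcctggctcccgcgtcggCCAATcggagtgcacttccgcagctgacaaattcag
Atf3: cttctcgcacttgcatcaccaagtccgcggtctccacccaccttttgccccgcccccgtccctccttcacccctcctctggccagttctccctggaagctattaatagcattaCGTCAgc

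Of the 10 genes, 8 had an entry in the RefSeq promoter table (all but Egr1 and Ier2), and the 250 bases before the start were searched on both strands. The RefSeq start was not always the start of the M21 gene. For Fosl2 all 120 bases nearest the start lie in an M21 exon. The Atf3 stretch lies inside the M21 gene, with 7 of its 120 bases in an exon, and Fosb and Klf6 have 6 and 7 such bases. For Jund the 120 bases end at 70697738, before the M21 start at 70698949. TGACG was found in Fos, Fosb, Junb and Atf3, which is 4 of the 8, against 17.8% of all 32851 promoter windows of that length. In Fos it stood at bases 66 to 62 before the start, and again at 129 to 125, outside the stretch shown. In Fosb it stood at bases 60 to 56, in Junb at 106 to 102 and in Atf3 at 7 to 3. A CCAAT box was found in Jun, Junb and Klf6 (33.8% of all windows) and TATAAA in Fos alone (12.4%). The full response element TGACGTCA, the AP-1 site TGANTCA, the CArG box, the Egr site GCGTGGGCG and the Ets site CCGGAAG had no match in these 8 windows, against 1.55%, 6.75%, 1.47%, 0.536% and 6.91% of all windows. Only these exact patterns within 250 bases were searched, so variants and elements farther from the start were missed. The Jun line above, for example, holds tgacatca, which is close to TGACGTCA. TGACG is contained in TGACGTCA. The motifs were chosen after the sequences had been seen, and a match describes the letters in the window, not binding.

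Of the 10 genes, 1 was called higher in mandibular-derived monocytes, Egr1, and none was called lower. DESeq2, edgeR's exact test and limma-voom each called 2 higher, Egr1 and Atf3, and none lower, and no member with a value below 0 had an unadjusted p under 0.05 by any of these tools. Of all 18114 tested genes they called 1547, 1468 and 753 in either direction. Of those calls 71.0%, 68.1% and 67.3% were higher in the mandible. The femur was the baseline of the test, which was the quasi-likelihood F-test of edgeR over all 18114 genes. A call needed a Benjamini-Hochberg adjusted p below 0.05 together with a change of 2-fold or more. Over all tested genes, 3.88% were called higher in the mandible and 1.3% lower, 5.18% in either direction. Of the members, 3 (Egr1, Junb and Atf3) had an unadjusted p under 0.05, where 16.4% of all tested genes did. The 3 mandible libraries all lay above the 3 femur libraries in 4 of the 10 genes (Egr1, Junb, Atf3 and Ier2), against 12.7% of all tested genes. The fitted log2 fold change was above 0 in 8 members and below 0 in Jun and Jund, with a median of 0.46, against -0.038 over all tested genes. The median fell to 0.23 without femur library S13 and was 0.68 without femur library S15, so the size of the shift depended on which femur library was kept. All 6 fits that left out 1 library called Egr1, and the fit without femur S18 called Atf3 as well.

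**Figure D1:**
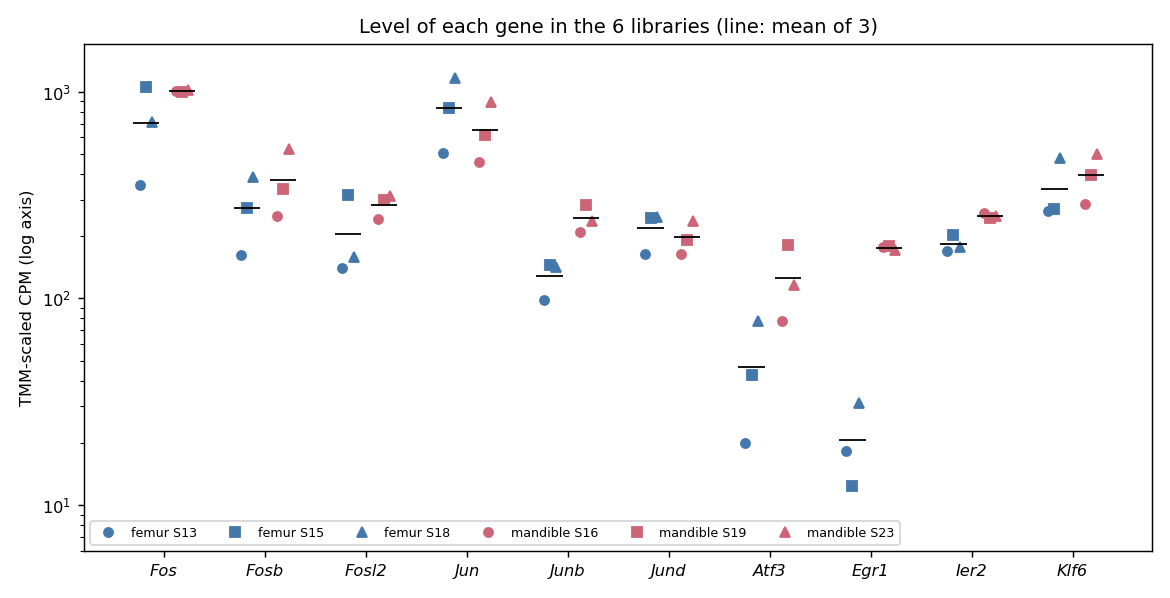
TMM-scaled counts per 1000000 (CPM, log axis) of the 10 genes in each of the 3 femur-derived (blue) and 3 mandible-derived (red) libraries, with a black line at each group's mean. The 3 mandible libraries of Egr1 lie between 171 and 178 CPM, above the femur libraries at 12.3 to 31.1 CPM, while those of Jun, Jund, Fosb and Klf6 overlap with the femur.

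Egr1, a zinc finger factor induced by growth factors and by the MAP kinase route, showed the largest difference of the 10 genes. It lies on chromosome 18 (ENSMUSG00000038418, 34859823 to 34864984, plus strand) and has 2 exons. Its level was 18.2, 12.3 and 31.1 CPM in femur libraries S13, S15 and S18, and 178, 178 and 171 CPM in mandible libraries S16, S19 and S23. All 3 mandible libraries were several times above the highest femur library. The mean (± SD of 3 libraries) was 20.5 ± 9.64 CPM in the femur and rose to 176 ± 4.0 CPM in the mandible. On the log2 scale this was a difference of 3.10 with a standard error of 0.35, or 8.55-fold, and edgeR gave an adjusted p of 0.00045. Only 92 of the 18114 tested genes had a smaller p. Leaving out each library in turn gave a log2 fold change between 2.79 and 3.53 and an edgeR adjusted p between 0.00034 and 0.0053. Without the female library S23 the log2 fold change was 3.06. It was 2.84 after the trend with gene length in each library was removed. That trend differed between the sites. The slope of centred log2 CPM on log2 gene length was -0.21 to -0.047 in the femur libraries and 0.081 to 0.19 in the mandible libraries. Its cause was not tested. The mRNA came from marrow cells in bulk, so that fewer cells of a type and less RNA per cell cannot be told apart, for this gene and all others. Egr1 moved together with the summed level of 15 mesenchymal and osteoblast markers, which was 354 to 454 CPM in the femur and 9050 to 15592 CPM in the mandible, and of 12 markers of tooth epithelium and enamel, at 11.05 to 12.02 and 5831 to 11431 CPM. Within the mandible the mesenchymal sum was lowest in S16 and highest in S23, where Egr1 was at 178 and 171 CPM. The part of these cells in the Egr1 level was not tested.

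Among the Fos family genes, whose proteins bind DNA only with a partner, none was called, and in each the highest femur library lay above the lowest mandible library. Fos was at 354, 1047 and 714 CPM in femur libraries S13, S15 and S18, and at 1008, 992 and 1015 CPM in mandible libraries S16, S19 and S23. The highest over the lowest library was 1.02 in the mandible and 2.96 in the femur, and femur S15 was above all mandible libraries. Femur-derived monocytes had a mean of 705 ± 347 CPM and mandibular-derived monocytes one of 1005 ± 11.7 CPM (SD, n = 3), which gave a fitted log2 difference of 0.51 with a standard error of 0.39 (edgeR adjusted p = 0.62; exact permutation p = 0.4, two-sided, where 3 against 3 libraries cannot go below 0.1). The difference in Fos fell to 0.20 without femur S13 and reached 0.87 without femur S15. Fosb was at 162, 273 and 387 CPM in the femur and at 250.5, 339 and 530 CPM in the mandible, in the same order of libraries. Its groups overlapped, with femur S13 below and mandible S23 above all libraries of the other site. The fitted log2 difference of Fosb was 0.45 (standard error 0.38, edgeR adjusted p = 0.67). It was 0.052 without mandible S23 and 0.045 after the length correction. Fosl2, also called Fra-2, was at 140.5, 315 and 159 CPM in the femur and at 242, 298 and 312 CPM in the mandible. As for Fos, femur S15 lay above the mandible libraries, and the log2 fold change was 0.47 (standard error 0.34, edgeR adjusted p = 0.59). It was -0.013 after the length correction and 0.88 without femur S15.

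In the Jun family, Junb differed in the direction of Egr1, while Jun and Jund had fitted values below 0. Junb, which can hold back the activity of Jun at some promoters, was at 97.7, 144 and 142 CPM in femur libraries S13, S15 and S18. In the mandible it was at 209.7, 284 and 238 CPM in S16, S19 and S23. The groups did not overlap, and the means were 128 ± 26.2 and 244 ± 37.3 CPM (SD, n = 3). The log2 fold change of 0.93 (standard error 0.27) is 1.91-fold, under the threshold of 2, and the edgeR adjusted p was 0.083. Other tests of the same counts gave Junb an adjusted p of 0.0054 (DESeq2), 0.027 (edgeR's exact test) and 0.059 (limma-voom), with a fold change still under 2. Jun was at 505, 837 and 1168 CPM in the femur and at 457, 620.0 and 888 CPM in the mandible. The ranges overlapped, with femur S18 above all mandible libraries and mandible S16 below all femur libraries, and the log2 fold change was -0.35 (standard error 0.38, edgeR adjusted p = 0.76). The value was -0.69 when mandible S23 was left out and -0.028 when femur S18 was. Jund, the member with the steadiest expression in many cell types, was at 163, 245 and 249 CPM in the femur and at 164, 191 and 237 CPM in the mandible, a log2 fold change of -0.15 (standard error 0.28, edgeR adjusted p = 0.88). After the length correction Jund had a value of 0.067, so that its sign was not fixed.

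Atf3, a stress-induced bZIP factor that pairs with Jun proteins, was at 19.9, 42.3 and 77.3 CPM in femur libraries S13, S15 and S18 and at 77.8, 180.2 and 116 CPM in mandible libraries S16, S19 and S23. The groups nearly touched, at femur S18 and mandible S16. The means were 46.5 ± 28.9 and 125 ± 51.7 CPM (SD, n = 3). The difference of 1.42 on the log2 scale (standard error 0.46), or 2.68-fold, was not called (edgeR adjusted p = 0.12). It was called by DESeq2 (adjusted p = 0.018), by edgeR's exact test (adjusted p = 0.036), by limma-voom (adjusted p = 0.048), with every gene that had a count kept (edgeR adjusted p = 0.00067) and without femur S18 (edgeR adjusted p = 0.044), while the adjusted p rose to 0.38 without mandible S19. Ier2 was at 169, 202 and 178 CPM in the femur and at 259, 244 and 250.2 CPM in the mandible. It had the narrowest femur spread of the 10 genes and no overlap between the sites, but a small difference, 1.37-fold on the linear scale. Its log2 fold change was 0.46 (standard error 0.24, edgeR adjusted p = 0.41), between 0.40 and 0.49 when each library was left out in turn. Klf6, which is expressed in many myeloid cells also without a stimulus, was at 264, 272 and 476 CPM in the femur and at 285, 395 and 499.8 CPM in the mandible. Its groups overlapped, and the fitted log2 difference was 0.22 (standard error 0.34, edgeR adjusted p = 0.85), which was -0.041 without mandible S23 and -0.031 after the length correction.

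**Figure D2:**
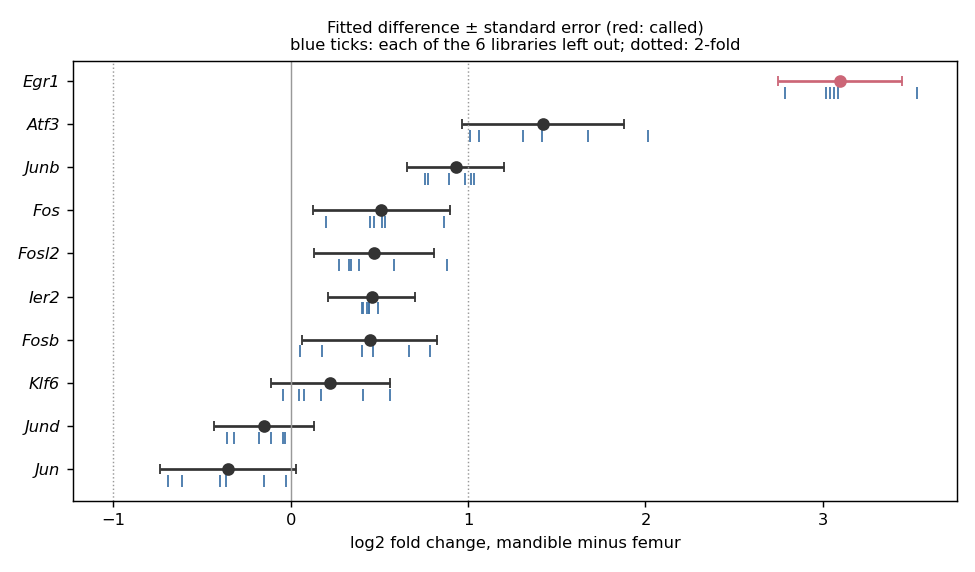
Fitted log2 fold change (mandible minus femur) of the 10 genes with its standard error, in red where called; blue ticks are the values when each of the 6 libraries is left out, and dotted lines mark a fold change of 2. Egr1 is at 3.10 and lies at 2.79 to 3.53 in these fits, while the ticks of Klf6 fall on both sides of 0.

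The 10 genes varied more between the femur libraries than between the mandible libraries. The SD of log2 CPM over 3 libraries was higher in the femur for 10 of the 10 genes, where 43.6% of all tested genes had the higher SD in the femur, and the median SD of the members was 0.62 in the femur and 0.24 in the mandible. In the femur 8 of the 10 exceeded the median SD of the tested genes of like expression (10 bins of equal size by mean log2 CPM), and in the mandible 4 did. Atf3 and Fos had the widest spread in the femur, at 0.98 and 0.79, against medians of 0.31 and 0.33 in their bins. Fos, Egr1 and Ier2 had an SD of 0.017, 0.033 and 0.042 in the mandible, where 0.331%, 0.718% and 1.82% of the genes in their bins had an SD as low or lower. Library S13 was the lowest of the 6 libraries for 8 of the 10 genes and the lowest femur library for 9. The exception within the femur was Egr1, lowest in S15. The summed level of the 10 genes was 1892 CPM in S13, against 3390 CPM in S15, 3580 CPM in S18 and 3130 to 4257 CPM in the mandible. The median difference between the highest and the lowest library, on the log2 scale, was 1.19 over the femur libraries, 0.53 between S15 and S18 alone and 0.48 in the mandible. The part of the neutrophil and erythroid markers of S13 in these low levels was not tested; femur S18 was also high in neutrophil markers (24210 CPM) and was the highest femur library for 6 of the 10 genes. Without S13 and S23 together, chosen after the values were seen, the median log2 fold change of the members was 0.13, with Egr1 still called (log2 fold change 2.98, edgeR adjusted p = 0.035).

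Levels of different genes were compared per 1000 bases of exon, which leaves in the trend with gene length that differed between the sites. On this scale Fos and Jun led in every library but S16, where Ier2 came between them. Fos stood at 300 ± 147 CPM per 1000 bases in the femur and 427 ± 4.96 in the mandible, and Jun at 262 ± 104 and 205 ± 68.3 (SD, n = 3). Ier2 (120 ± 11.3 and 165 ± 4.84) and Jund (131 ± 29.0 and 118 ± 22.0) followed. In the femur their ranges overlapped, and in the mandible Ier2 was above Jund in all 3 libraries. The mean of Junb was below that of Klf6 in the femur (55.6 ± 11.4 against 76.8 ± 27.4) and above it in the mandible (106 ± 16.2 against 89.6 ± 24.4), with overlapping ranges at both sites. Egr1 was last in all 3 femur libraries, at 4.58 ± 2.15, and above Fosl2 in all 3 mandible libraries, at 39.2 ± 0.892 against 29.3 ± 3.85.

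Within the summed level per 1000 bases of the 6 Jun and Fos family genes, the Jun family took 61.0%, 47.5% and 60.2% in femur libraries S13, S15 and S18 and 40.3%, 46.0% and 48.8% in mandible libraries S16, S19 and S23. The groups overlapped, because femur S15 had a mandible-like share, and the difference of -11.2 percentage points did not pass the test (p = 0.2, exact permutation of the libraries, two-sided). After the length correction the difference was -9.96 percentage points. Inside the Jun family the shares differed in opposite directions. Jun took 32.3 ± 5.90% of the 6 genes in the femur and 21.3 ± 4.35% in the mandible, and Jund 16.8 ± 2.82% and 12.4 ± 0.704%. Junb took 7.14 ± 1.33% and 11.3 ± 1.76% (SD, n = 3). The shares of each of these 3 genes were separate between the sites, and the exact permutation p was 0.1 for each, the lowest value possible here, so none could pass 0.05. Fos took 35.7 ± 7.87% in the femur and 45.7 ± 5.85% in the mandible and its groups overlapped. Shares of 1 sum are tied, and a lower share does not say that a gene's own level fell.

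**Figure D3:**
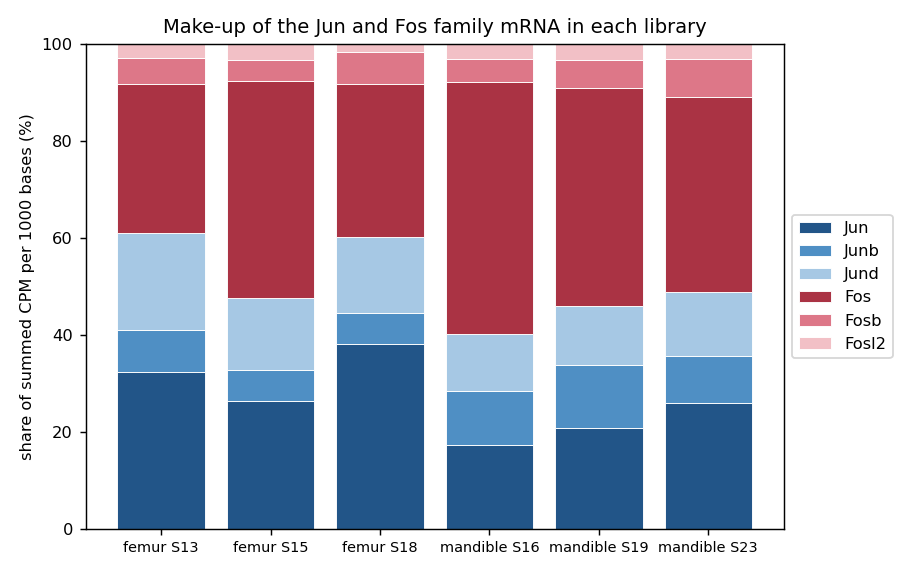
Share (%) of Jun, Junb, Jund (blue shades) and Fos, Fosb, Fosl2 (red shades) in their summed CPM per 1000 bases of exon, 1 bar for each library. The Jun share is 26.4% to 38.2% for femur libraries and 17.3% to 26.0% for mandible libraries, and the Junb share is higher in each mandible library than in each femur library.

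A list of 30 other immediate early genes held 28 that were in the table, and all 28 were tested. This list and those below were chosen with earlier results of these data known. Of these 28 genes, 24 had a log2 fold change above 0, with a median of 0.77. An unadjusted p under 0.05 was found for 13, against 16.4% of all tested genes. Calls were made for 4 genes (Ccn1, Ccn2, Nr4a2 and Nr4a1), all higher in the mandible, where 3.88% of all tested genes were called higher. The 3 mandible libraries lay above the femur in 15 of the 28, against 12.7% of all tested genes. They lay below it in 1, Myc, named after its value was seen. The orphan nuclear receptor Nr4a1, an immediate early gene that the nonclassical monocytes also need, was at 32.4, 75.0 and 68.6 CPM in femur libraries S13, S15 and S18 and at 142, 143 and 134 CPM in mandible libraries S16, S19 and S23. Its log2 fold change was 1.25 (standard error 0.32, edgeR adjusted p = 0.047). Its relative Nr4a2 was at 5.36, 10.97 and 14.6 CPM in the femur and at 43.1, 27.7 and 26.8 CPM in the mandible, a log2 fold change of 1.66 (standard error 0.42, edgeR adjusted p = 0.043). Both receptors were close to the threshold, and of the 6 fits that each left out 1 library, 1 called Nr4a1 and none called Nr4a2. Ccn1 and Ccn2 encode secreted matrix proteins that fibroblasts and other adherent cells make after serum or stretch. Ccn1 had 22, 3 and 0 counts in femur libraries S13, S15 and S18 and 200, 459 and 809 counts in S16, S19 and S23. Its fitted log2 fold change was 5.89 (standard error 1.09, edgeR adjusted p = 0.0088), which rests on almost no femur counts and depends on the prior count. Ccn2 had a mean of 5.97 ± 0.623 CPM in femur libraries and 24.4 ± 8.46 CPM in mandible libraries (SD, n = 3), with a log2 fold change of 2.03 (edgeR adjusted p = 0.013). Both were higher where the mesenchymal marker sum was higher, also within the mandible. Ccn1 was at 10.01, 21.8 and 46.3 CPM and Ccn2 at 14.9, 26.97 and 31.2 CPM in S16, S19 and S23, where the marker sum was 9050, 11936 and 15592 CPM; the part of these cells was not tested. The most abundant genes of the list, Dusp1, Zfp36 and Klf2, were at -0.19, 0.41 and -0.048 on the log2 fold change scale, and edgeR called none. The 4 calls were 0 without mandible S19, 0 without mandible S23, 1 without femur S18 and 2 without femur S13, and 9 under DESeq2.

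Of 21 other bZIP genes that pair with AP-1 proteins or share their sites, all were tested. Their median log2 fold change was 0.29, 17 were above 0, 3 had an unadjusted p under 0.05 and 1 was called. The last 2 counts are near the shares of all tested genes, 16.4% with such a p and 5.18% called. The gene called was Maf, a large Maf factor of macrophages, lymphocytes and other lineages. Maf was at 16.4, 11.2 and 17.7 CPM in the femur and at 118, 91.9 and 108 CPM in the mandible, without overlap. Its log2 fold change of 2.81 (standard error 0.28, edgeR adjusted p = 0.00024) is 7.01-fold, and all 6 fits that each left out 1 library called it. The most abundant genes of the list, Atf4, Bach1 and Creb1, had values of -0.0020, 0.36 and 0.053 and were not called. On the route of MAP kinases and serum response factors that leads to Fos, Jun and Egr1, 35 of 37 listed genes were tested, with a median of 0.18 and 24 above 0. No gene of the route was called by edgeR's quasi-likelihood test or by limma-voom. DESeq2 and edgeR's exact test called Mrtfb, a coactivator of serum response factor named after its value was seen. By edgeR's quasi-likelihood test 3 genes had an unadjusted p under 0.05, a smaller share than the 16.4% of all tested genes. The most abundant genes of the route, Rps6ka1, Map3k1 and Mapk14, had log2 fold changes of -0.10, 0.24 and -0.062.

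Osteoclast genes known to lie downstream of Fos were tested in 9 of 12 cases, with a median log2 fold change of 0.52, 8 above 0 and 1 called. Over all tested genes 5.18% were called. Nfatc1, the master regulator of osteoclast differentiation, was at 62.0, 80.2 and 81.6 CPM in the femur and at 109.9, 121 and 88.7 CPM in the mandible. Its groups did not overlap, but the log2 fold change of 0.52 (standard error 0.25) was not called (edgeR adjusted p = 0.35). Mmp9 had a log2 fold change of 0.10 and overlapping groups. The gene called was Itgb3, the β3 integrin of osteoclasts and of platelets, which fell by 1.67 on the log2 scale in the mandible (standard error 0.28, edgeR adjusted p = 0.0051), from 291 ± 57.0 to 91.3 ± 17.4 CPM (SD, n = 3). It moved with the summed level of 11 megakaryocyte and platelet markers, at 866 to 1220.1 CPM in the femur and 95.5 to 157 CPM in the mandible, and the part of platelets in it was not tested. The other 3 listed genes (Dcstamp, Calcr and Oscar), which mark osteoclast fusion and maturity, did not pass the filter on low counts and are named for that.

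The list of 17 heat shock and dissociation stress genes, mostly chaperones, had a median log2 fold change of -0.16, with 5 above 0 and 12 below. Of them 1 was called higher, Bag3, a cochaperone, with a log2 fold change of 1.33 (edgeR adjusted p = 0.016). Another 1 was called lower, Hspe1, the mitochondrial co-chaperonin, which fell by 1.69 on the log2 scale (edgeR adjusted p = 0.015). Over all tested genes 3.88% were called higher and 1.3% lower. The abundant chaperone genes Hsp90ab1, Hspa8 and Hspa5 had values of 0.41, -0.29 and -0.12 and were not called. The summed level of the list was 5634, 3582 and 6479 CPM in femur libraries S13, S15 and S18 and 5777, 5414 and 4087 CPM in mandible libraries S16, S19 and S23, so the groups overlapped. The sum was mostly that of the abundant chaperone genes. The stress-inducible genes Hspa1a and Hspa1b were picked with their values known. Within the femur both were lowest in S13 (26.3 and 15.7 CPM), as most AP-1 genes were. They were at 203 and 179 CPM in femur S15 and at 183 and 117 CPM in femur S18. In the mandible Hspa1a was at 7.91, 11.3 and 88.0 CPM and Hspa1b at 0.751, 11.3 and 60.4 CPM in S16, S19 and S23. Both genes were thus lower in S16 and S19 than in S13, unlike most AP-1 genes. The part of stress in the AP-1 levels was not tested.

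**Figure D4:**
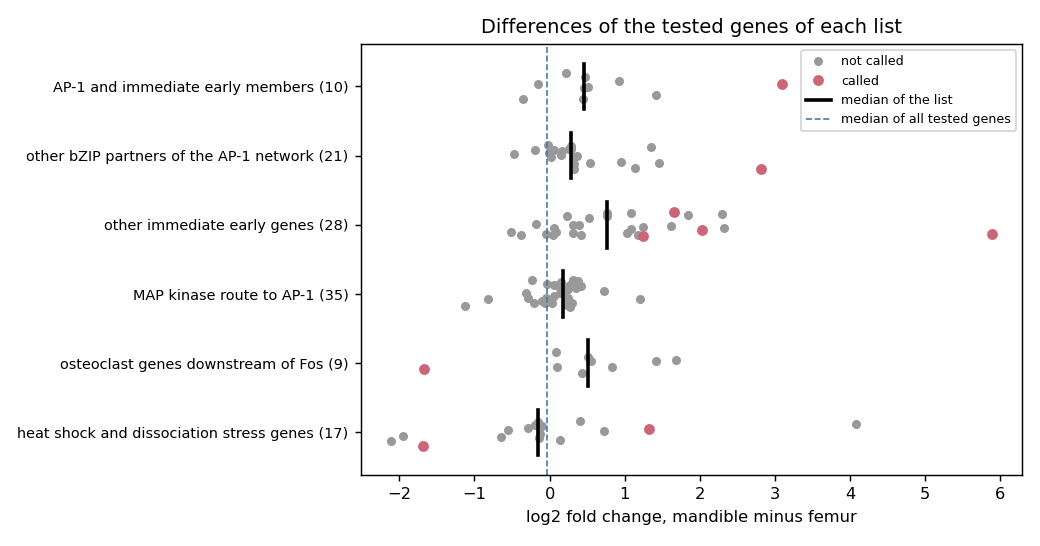
Log2 fold change (mandible minus femur) of each tested gene in the 6 lists, with the number tested in brackets, called genes in red, the list median as a black bar and the median of all tested genes (-0.038) as a dashed line. The other immediate early genes have a median of 0.77, the heat shock genes one of -0.16.

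Markers of some other cell types also differed between the sites. Over all tested genes edgeR called 5.18%, and 16.4% had an unadjusted p under 0.05. The neutrophil markers, all 12 tested, had log2 fold changes below 0 in 12 of 12 cases and an unadjusted p under 0.05 in 6. Of them 1 was called lower by edgeR's quasi-likelihood test and by limma-voom, 4 by DESeq2 and 5 by edgeR's exact test. Their sums were 3916 to 33539 CPM in the femur and 4084 to 10577 CPM in the mandible. These ranges overlapped, with femur S15 (3916 CPM) below all mandible libraries. Of the 10 tested megakaryocyte and platelet markers 9 were called lower, and of the 9 erythroid markers 4 were. Of the 15 mesenchymal and osteoblast markers 14 were called higher and of the 12 tooth epithelium and enamel markers 7 were. The remaining mesenchymal marker, Cxcl12, was lower in all mandible libraries (log2 fold change -1.42, edgeR adjusted p = 0.084). DESeq2, edgeR's exact test and limma-voom called Cxcl12 lower. It stood at 149 to 243 CPM in the femur, where the sum of these markers was 354 to 454 CPM, and at 34.7 to 121 CPM in the mandible. The enamel gene Odam, picked with its value known, was at 0 in all femur libraries. Of the 7 tested B cell markers 3 were above 0 and 4 below. Ebf1 was called higher by both edgeR tests and DESeq2, and limma-voom called none. DESeq2 also called Jchain lower, which made up most of the B cell sum (log2 fold change -1.04, edgeR adjusted p = 0.18). None of the 10 tested T and NK cell markers was called by edgeR or another tool, and 2 had an unadjusted p under 0.05. None of the 6 tested endothelial markers was called by edgeR or another tool, and 0 had an unadjusted p under 0.05. The sums of the B cell, T and NK cell and endothelial markers had ranges that overlapped between the sites. How much of the AP-1 mRNA came from these cells was not tested.

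Among the 9498 genes with a mean of at least 10 CPM outside the 10 members, the 5 whose profile over the 6 libraries was most like that of Fos were Nhlrc3, Trps1, Il6st, Lmf1 and Ptpn23. Likeness was the root mean square difference of centred log2 CPM, which was 0.049 for Nhlrc3, 0.086 for Trps1 and 0.13 for each of the other 3. All 5 were lowest in femur S13, as Fos was, and none was called between the sites, which follows from their choice by likeness to Fos. Trps1, for example, was at 65.1, 164 and 115 CPM in femur libraries S13, S15 and S18 and at 161, 167 and 181 CPM in mandible libraries S16, S19 and S23. The members nearest to Fos by the same measure were Fosl2 (0.27), Junb (0.35) and Ier2 (0.40), and 90 of the 9498 genes were nearer than Fosl2. Egr1 was the farthest member, at 1.44.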

How the data were processed

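The values used are counts of reads per gene and library, as the authors deposited them, raw and without normalization. Per the study's methods, paired-end reads were trimmed with Trimmomatic, mapped with HISAT2 2.1.0 (version from the submitters' processing notes) to a genome named as GRCm38 and counted with featureCounts; its version and its use of strand and of reads with several positions are not given in the sources used here. The deposited gene lengths, in bases, served levels per length and the length correction. Of 52081 genes shared with GENCODE M21, 2979 had a table interval inside the M21 gene, so positions came from M21.

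All 6 libraries entered a fit without covariates in edgeR 4.0.16 (R 4.3.3), using TMM, glmQLFit, glmQLFTest and a prior count of 0.125, after filterByExpr had removed genes of low count (minimum 10, total 15). The standard error is the size of the log2 fold change divided by the square root of F. Exact permutation tests and SDs on the log2 scale used log2 CPM with a prior count of 2, and lists were described by counts and medians only. The edgeR test and the length correction were also run on simulated counts, and the permutation p was checked on made-up values. The outcome is not given here, and the other steps were not tried in this way. The 10 members and the lists were chosen with earlier results of these data known. Named genes were the 10 members, up to 5 called genes by p and the 3 most abundant genes in each pathway or stress list, the 5 genes most like Fos, and the sex-linked genes. Other genes named, such as overlapping genes or those that failed the filter, were picked with their values known.

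DESeq2 1.42.0, limma-voom (limma 3.58.1) and the exact test of edgeR were tried as other tests. Further alternatives were RLE factors, no factors, TMM without ribosomal RNA, mitochondrial, hemoglobin and immunoglobulin genes, 2 other filters, a prior count of 2, a loess correction for gene length (span 0.4), no fold threshold, a prior count of 0.5 in log2 CPM, and each library left out in turn. Leaving out S13 and S23 together was added after the data were seen.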

Additional observations from a re-analysis of the deposited data

How the results depend on the processing

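Of the 180 log2 fold changes of the 10 members under 18 alternatives, 169 kept their sign and their call, 5 became called (each for Atf3) and 6 changed sign. Egr1 was called in all 18. DESeq2, edgeR's exact test, limma-voom and testing every gene with a count each called 2 members, and leaving out each library in turn called 1 to 2. The calls among all genes were 1547 (DESeq2), 1468 (exact test), 1590 (every gene with a count), 210.0 (femur S13 and mandible S23 both left out, added after the data were seen) and 434 to 1565 with each library left out in turn. The other immediate early genes had 9 calls (DESeq2), 7 (every gene with a count), 2 (length correction), 1 (S13 and S23 left out) and 0 to 4 with each library left out. The share of calls that were higher in the mandible was 74.8%, against 64.1% over every gene with a count, 87.8% without S13, 61.2% without S15, 85.1% without S16, 86.6% without S19 and 89.5% without S13 and S23. The median log2 fold change of all genes was -1.09 over every gene with a count and -0.18 after the length correction. That correction also gave -0.013 for Fosl2, 0.067 for Jund, -0.031 for Klf6, 0.087 for Atf4, -0.65 for Creb1, 0.11 for Klf2, -0.17 for Map3k1 and -0.050 for Mmp9. Without normalization factors the value was 0.095 for Atf4, 0.069 for Klf2, 0.026 for Mapk14 and 0.012 for Hspa5, and Atf4 had 0.029 with DESeq2 and with RLE factors. Without S13 and S23, Fosb had -0.22, Klf6 -0.19 and Rps6ka1 0.22. Over the fits that left out 1 library, the values ran from -0.041 to 0.56 (Klf6), -0.098 to 0.045 (Atf4), -0.013 to 0.093 (Creb1), -0.78 to 0.12 (Dusp1), -0.50 to 0.15 (Klf2), -0.20 to 0.050 (Mapk14), -0.37 to 0.15 (Rps6ka1), -0.44 to 1.78 (Mmp9) and -0.38 to 0.067 (Hspa5). The cause of these changes was not tested. No paired analysis was possible because the labels do not tie the libraries to animals. Each group had 3 libraries of unknown animals, and 1 library was female. Each member had at least 267 counts in every library, and what limits the number of calls was not tested.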
